A study of Gasterosteus aculeatus with 12 samples.

Results

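The 37530 sites described here are single-nucleotide variants (SNVs) at which the F1 embryos of a stickleback cross fell into heterozygous and homozygous reference genotypes and into no other. They were chosen from the reads themselves. A site needed an entry and more than 12 reads in each of the 12 embryos, to have a pooled low mapping quality share of at most 0.05, and to lie outside chromosome XIX, the sex chromosome of this species, and the unplaced sequence. An embryo was called homozygous reference at an alternate share of at most 0.02 and heterozygous at a share of 0.20 to 0.80, and every embryo needed a call, with at least 3 embryos of each kind and none homozygous for the alternate allele. Of 321670 sites listed in every embryo, 116469 passed the read minimum, 92995 also passed the mapping quality and chromosome limits, and 80156 also had a call in every embryo.

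The samples were 12 whole threespine stickleback (*Gasterosteus aculeatus*) embryos, each sequenced as 1 polyA RNA-seq library. They formed 1 group, LITC x High-spine, collected 72 h after fertilization at stage 19/20, so no treatment or genotype contrast was built into the set. The labels give the parents only as LITC, an anadromous population, and High-spine, in the methods a laboratory line that descends from a Boulton by Bodega Bay cross and was bred for high spine number. The study made separate crosses for the embryos and for its later tissue samples, from populations that are not inbred. The single LITC female and high-spine male in the methods are named for a clutch raised to later stages, the number of clutches behind the 12 embryos is not given there, and no file analysed here gives the genotype of a parent.

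In an F1 family, a site shows heterozygous and homozygous reference offspring when a parent carries both alleles and the other carries the reference allele on both chromosomes. The alternate allele then marks 1 of the parental chromosomes, and embryos that share it inherited the same stretch of that chromosome. Where an embryo is heterozygous, its reads divide between the parental alleles in a common nuclear environment, so an unequal division reports a difference that acts in *cis* or a difference in how the reads of the alleles align. Homozygous embryos carry no information on this balance, and allele balance was therefore tested in heterozygous embryos only.

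Summed over all listed sites, the authors' read counts came to 16302333 to 27003127 per embryo, with a read counted at each listed site that it covered. At the members, the median depth was 60 reads per heterozygous call and 62 reads per homozygous call, and a member held between 185 and 155139 reads over the 12 embryos, with a median of 740. Of the 37530 members, 33461 (89.2%) had no alternate read in any of their homozygous embryos, and pooled over members the alternate allele made up 0.0271% of the reads of homozygous embryos. The reads carried no molecular identifiers, so the intervals given below cover counting error only.

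The thresholds left few sites close to the edge. In 398 members at least 1 heterozygous embryo had an alternate share of 0.20 to 0.22, and in 230 members at least 1 had a share of 0.78 to 0.80. Just outside, 1631 sites would have been members but for exactly 1 embryo without a call, which lay under a share of 0.20 at 1376 of them and above 0.80 at 255. A further 612 sites had 2 heterozygous and 10 homozygous reference embryos, and 669 had 10 heterozygous and 2. Because heterozygous shares were held within 0.20 to 0.80, a log2 ratio of reference to alternate reads could not pass 2 in any embryo, and the ratios reported here are bounded by that choice.

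The genotype splits were shared along chromosomes. Each embryo was heterozygous at close to an even part of the members, from 46.9% in embryo 12 to 52.6% in embryo 5. Between embryos, the share of members with the same call ranged from 33.5% for embryos 5 and 7 to 69.0% for embryos 8 and 11, with a median of 49.6% over 66 pairs. The number of heterozygous embryos per site peaked at 7 (8971 sites) and 5 (8028 sites), and was lowest at 3 (2420 sites) and 9 (2491 sites).

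A split and its complement, the same division with the genotypes exchanged, were counted as 1 pattern. The members then fell into 254 patterns summed over the 21 sequences, with a pattern counted again on each sequence that held it. The median was 12 patterns per chromosome, against 1969 that are possible with 3 to 9 heterozygous embryos. Patterns that held at least 1% of their chromosome's members numbered 182 and covered 37025 members (98.7%). Of these 182 patterns, 83 differed in 1 embryo only from a more frequent pattern of the same chromosome, and 17 of the 254 patterns were seen at a single site. On chromosome I, the second pattern differed from the first in embryo 5. On chromosome XX, the second pattern differed from the first in embryo 3 and lay beyond it, from position 15659395 to 19640542, whereas the first ran from 3494216 to 15485926. All coordinates are those of the gasAcu1-4 assembly used by the authors.

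The leading pattern held from 19.6% of the members of chromosome IV to 59.0% of those of chromosome VII, with 7 to 20 patterns on each chromosome apart from chrP, where all 36 members shared 1 pattern. The opposite phases of a pattern have the heterozygous and homozygous embryos exchanged. On 15 of the 20 chromosomes, the larger phase held under 60% of the leading pattern's sites (median over chromosomes 54.9%). Chromosome VII stood at the far end, with 1329 sites in one phase and 333 in the other (80%), followed by XII (66.6%), XVII (63.9%), I (61.7%) and IV (61.3%).

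**Figure D1:**
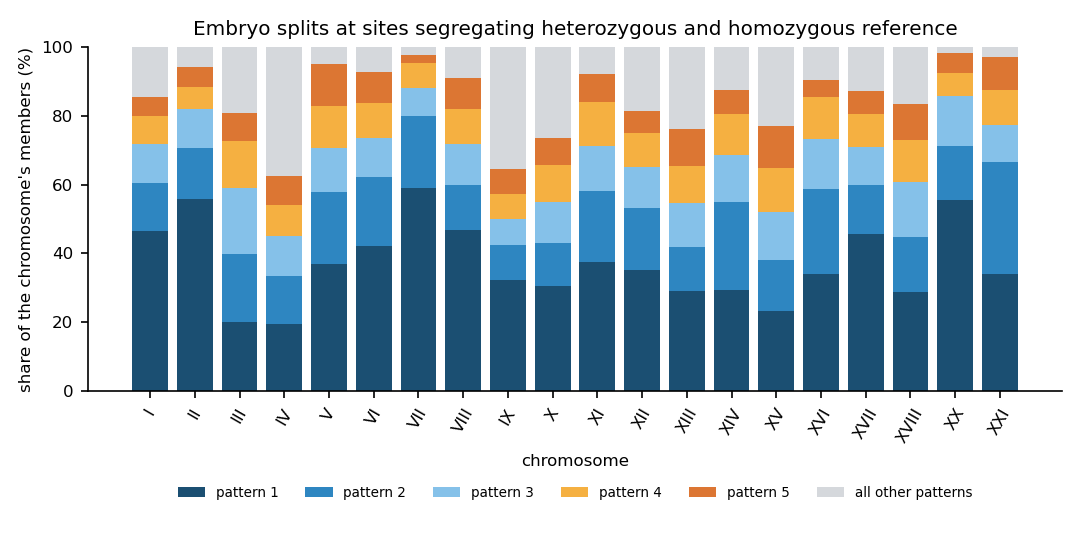
Share of each chromosome's members (vertical axis, %) held by its 5 most frequent embryo splits and by all others, with a split and its complement counted as 1 pattern. A single pattern held 59.0% of the members of chromosome VII and 19.6% of those of chromosome IV.

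Members made up 29.3% (chromosome VIII) to 50% (chromosome IX) of the sites past the filters on read depth, mapping quality and chromosome. They were absent from some long stretches in which other sites passed these filters. On chromosome VIII, 1.93 Mb from 17221130 to 19152427 held 609 such sites and no member. A 2.02 Mb stretch of chromosome VII (25515581 to 27532026) held 312 and no member, and a 1.5 Mb stretch of chromosome VI (16175646 to 17677743) held 151. The longest, 2.58 Mb of chromosome IV (21481772 to 24065429), held 133. The rule leaves out splits with fewer than 3 embryos of a kind, so a stretch without members can still segregate. The stretches on VIII, VII and VI each began at the last site of a pattern with only 3 embryos on 1 side.

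Neighbouring members mostly repeated the same split. Among 18106 pairs of members at most 150 bp apart, 78.9% had the same or the complementary pattern, and this share was 74.1% from there to 1000 bp and 66.7% at 10 to 100 kb. Between chromosomes it was 0.0659%. Linked members therefore repeat 1 division of the same embryos and are not independent of each other.

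A small set of members had splits that were rare on their own chromosome and more frequent on another. At 15 members, the split was rare on their own chromosome (under 1% of its members) but held at least 1% of the members of another. At 490 other members, the split was rare on their own chromosome and on every other. How many matches to another chromosome would arise by accident was not tested. These sites were singled out after their values had been seen. On chromosome X, 6 members from 2657049 to 2660543 all carried a pattern that was found at 562 members of chromosome XVI. Similarly, 3 members of chromosome I (2050708 to 2050898) carried a pattern of chromosome VIII (123 members), 2 members of chromosome XV (13952320 and 13952333) a pattern of chromosome III (477 members), and 2 members of chromosome XVII (16827506 and 16835699) the leading pattern of chromosome XX (738 members). The pattern of the 3 chromosome I members differed only in embryo 11 from one found between 125035 and 1947344 of chromosome I. It differed only in embryo 3 from one found between 2240097 and 2244092, so these 3 members do not stand apart from their neighbours. The remaining 2 were single sites, at 10917815 of chromosome III and 14784429 of chromosome X. An alternate read was present in 16.7% of the homozygous calls at these 15 sites, against 2.63% at members whose split was common on their own chromosome. Depth was not matched in this comparison, which rests in part on a single deep site. At 16835699 of chromosome XVII, all 8 homozygous embryos carried 1 to 10 alternate reads, at 30.2 to 44.8 CPM (read counts scaled to the effective library size). Where the reads of these sites come from was not tested.

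C-to-T and G-to-A changes were the most frequent kinds of variant, with 7526 and 7369 members. Transitions made up 22564 members (60.1%), or 1.51 per transversion. A reference C or G was replaced by A or T at 19634 members, and a reference A or T by C or G at 11061.

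In heterozygous embryos, the reference allele received slightly more reads than the alternate allele. The median reference share over the heterozygous members of an embryo ranged from 51.1% in embryo 7 to 51.5% in embryo 11, with a mean of 51.3% ± 0.117 (SD, n = 12). All 12 embryos lay above 50%, and the mean excess of 1.34 percentage points was tested by flipping signs over embryos in an exact permutation test (two-sided p = 0.000488, the smallest value that 12 embryos allow). The window on heterozygous shares is symmetric about 0.5. The sites lost to it by 1 embryo were not, with 1376 under an alternate share of 0.20 and 255 above 0.80. With a window of 0.10 to 0.90 the mean share was 51.44%, against 51.34% with the window used, so the excess did not shrink. Selection beyond the wider window was not tested.

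The comparison class was the 9681 sites picked by the mirror image of the rule, with heterozygous and homozygous alternate embryos. At these sites the median reference share was 51.0% ± 0.164 (SD, n = 12), again above 50% in 12 of 12 embryos. Members exceeded them by 0.379 ± 0.196 percentage points, in the same direction in all 12 embryos but by only 0.0434 points in embryo 7 (same exact test, p = 0.000488). Both classes thus leaned to the reference allele in these embryos, the members by the larger amount. The test covers the spread between embryos, which were read at many of the same sites. It does not cover the spread between sites, so it cannot decide whether the classes of sites differ as such.

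**Figure D2:**
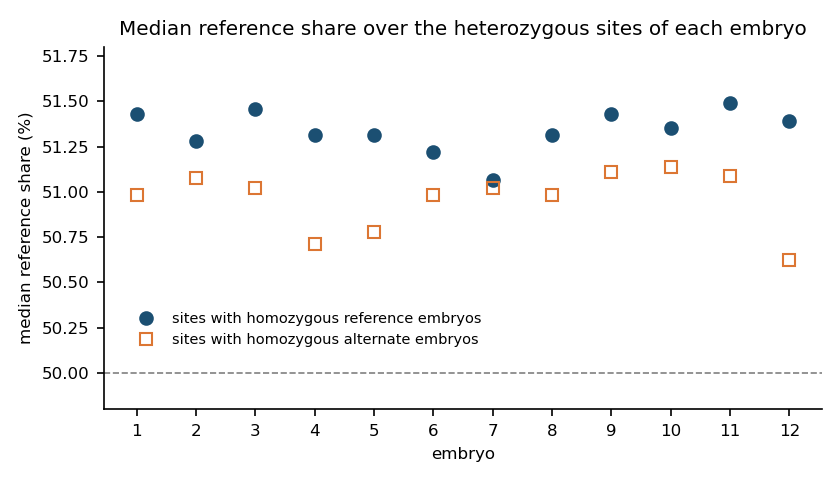
Median reference share (vertical axis, %) over the heterozygous sites of each of the 12 embryos, for sites with homozygous reference embryos (filled circles) and for sites with homozygous alternate embryos (open squares), with the dashed line at 50%. Every point lies above 50%, the first class spans 51.1 to 51.5%, and in embryo 7 the classes nearly coincide.

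The excess also varied with the bases involved, a comparison chosen after seeing the data. At members where C or G in the reference was replaced by A or T, the median reference share was 51.6% ± 0.222 (SD, n = 12), and at members with the opposite replacement it was 50.9% ± 0.171. The difference of 0.737 ± 0.337 percentage points was positive in 12 of 12 embryos (same exact test, p = 0.000488). At the mirror sites the same contrast was 0.927 ± 0.520 points, also positive in 12 of 12 embryos (p = 0.000488 in the same exact test). These tests likewise do not cover the spread between sites.

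Allele balance was then tested site by site with edgeR's quasi-likelihood test, with the embryo as a block and p-values adjusted by the Benjamini-Hochberg method over all 68291 sites that could be tested. At an adjusted p below 0.05, 7522 of 37530 members (20.0%) were called, against a background of 21.9% over all sites tested, so members were not called more often than other sites. The reference allele had more reads at 5273 members (14.1%, background 14.9%) and the alternate allele at 2249 (5.99%, background 7.01%). The median log2 ratio over all members was 0.07, and 11719 members had an unadjusted p under 0.05. When the ratios were shifted by this median, 7105 members were called and the direction split was nearly even, with 3698 towards the reference and 3407 towards the alternate allele, so that the share of calls towards the reference fell from 70.1% to 52.0%. Without the embryo as a block, 2237 members were called, and DESeq2 with the block called 2631.

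A call in which every heterozygous embryo leaned the same way was made at 4979 members (13.3%, background 11.7%). The background includes 16453 sites that were heterozygous in every embryo, where more embryos had to lean the same way than at any member. The number of heterozygous embryos was not matched, so these shares cannot decide whether members leaned in a single direction more often than other sites. Among called members, 4198 had a log2 ratio of at least 0.5 in either direction, and 605 of at least 1, 469 towards the reference and 136 towards the alternate allele. The called share rose with depth. It was 7.51% at members with under 300 pooled reads, 16.0% from 300 to under 1000, 25.4% from 1000 to under 3000 and 39.3% at 3000 or more, although the median absolute log2 ratio fell over the same classes from 0.24 to 0.14. The called share was also 10.8% at sites with 3 heterozygous embryos and 24.1% at sites with 8.

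**Figure D3:**
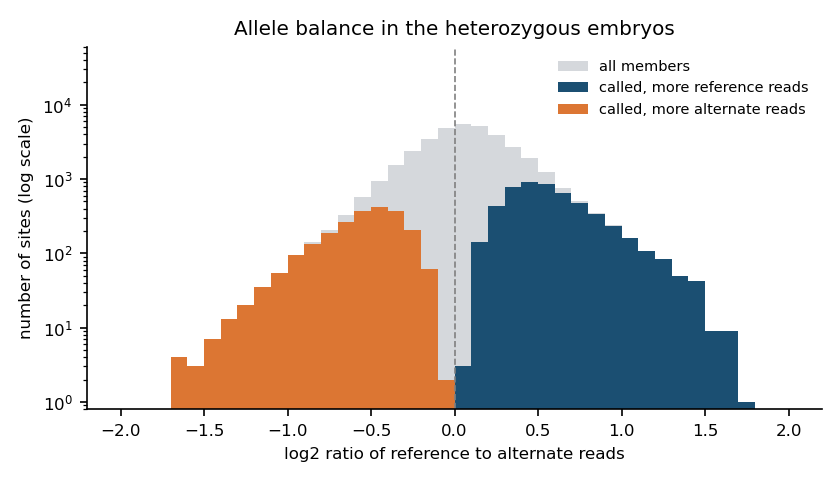
Number of members (vertical axis, log scale) by log2 ratio of reference to alternate reads in the heterozygous embryos, for all 37530 members and for those called at an adjusted p below 0.05. Of the called sites, 5273 lie to the right of 0 and 2249 to the left, and the median of all members is 0.07.

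The share of members called ranged from 15.1% on chromosome VI to 24.1% on chromosome X among the numbered chromosomes, and was 33.3% of the 36 members on chrP. On chromosome VII, the phases of the leading pattern had medians of 0.09 over the 1329 sites of the larger phase and 0.07 over the 333 sites of the smaller. Calls were made at 27% of the former and 14.7% of the latter. Sites of a phase lie on the same segments and were not compared by a test.

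Nearby sites with the same split gave similar ratios. Over 10210 pairs with the same split at most 150 bp apart, the log2 ratios had a Pearson correlation of 0.76, and over 20465 pairs from there to 1000 bp it was 0.37. For complementary splits, whose alternate alleles lie on different chromosomes and whose heterozygous embryos are not the same, the values were 0.18 over 4073 pairs and 0.14 over 10967 pairs. These are descriptions across pairs of sites, which share libraries and, at short distances, reads. Among called members with an absolute log2 ratio of at least 0.5, 823 of 880 pairs with the same split, more than 150 and at most 1000 bp apart, had the same direction. So did 178 of 212 pairs with complementary splits, against 52 of 229 pairs with other splits, and agreement in direction was thus not particular to pairs with the same split.

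The most unequal members were those with reference shares near the limits of the window. By a fixed rule, the 10 sites with the largest log2 ratio in each direction were taken from called members that had at least 5 heterozygous embryos, all leaning the same way. No gene annotation of this assembly was used, so the sites are given by position alone.

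The largest ratio towards the reference allele was at the G-to-T site at 13980685 of chromosome V. Its 8 heterozygous embryos had reference shares of 75.2% to 79.7%, with a median of 76.4%. Their 7507 reference reads outnumbered 2309 alternate reads, which made up a pooled share of 76.5% for the reference (exact 95% binomial interval 75.6 to 77.3%) and a log2 ratio of 1.71 ± 0.04 (SE), with an adjusted p of 8.5e-36 from edgeR. Every heterozygous embryo lay far from 50%, while its 4 homozygous embryos held 4602 reads and 0 alternate reads. Total depth did not separate the genotypes there, at 43.1 to 80.2 CPM (read counts scaled to the effective library size) in heterozygous and 48.3 to 68.6 CPM in homozygous embryos.

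At the C-to-T site at 2454195 of chromosome I, the reference share was 73.8% to 77.9% in 7 heterozygous embryos (median 76.3%), from 8337 reference and 2666 alternate reads. Its log2 ratio was 1.65 ± 0.04 (SE; edgeR adjusted p = 6.0e-34). These 2 sites were far deeper than the other 8 towards the reference, which held between 147 and 677 reads over their heterozygous embryos and had log2 ratios of 1.49 to 1.67. The 8 lay on chromosomes XIV (11975757, 1.67), VIII (7541750, 1.66), X (16611241, 1.63), I (28627370, 1.61 and 28072735, 1.5), XVII (13598449, 1.52), VII (8040084, 1.5) and VI (3634192, 1.49). Precision differed accordingly, with standard errors of 0.04 at the deep sites and up to 0.25 at the chromosome XIV site. Total depth did separate the genotypes at the chromosome XIV site, at 1.43 to 1.63 CPM in heterozygous and 3.64 to 5.59 CPM in homozygous embryos. The log2 difference was -1.53 there (edgeR adjusted p = 5.0e-05) and -1.10 at 28072735 of chromosome I (adjusted p = 0.00848). The rest of these sites towards the reference were not called for depth.

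Towards the alternate allele, the largest ratio was at the C-to-T site at 1766385 of chromosome XII. The reference share was 21.4%, 29.3%, 26.2%, 20.2% and 24.6% in embryos 3, 7, 8, 10 and 12, from 204 reference and 654 alternate reads in all, and the log2 ratio was -1.67 ± 0.11 (SE; edgeR adjusted p = 7.5e-15). All 5 embryos lay well under 50%. At the C-to-T site at 15250546 of chromosome XXI, 9 heterozygous embryos had reference shares of 21.8% to 29.4% (median 23.1%) and a log2 ratio of -1.66 ± 0.12 (SE).

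Of the remaining 8 sites towards the alternate allele, 4 lay on chromosome X, at 7021121 (-1.65), 16037659 (-1.60), 16591055 (-1.5) and 13397664 (-1.46). The others had log2 ratios of -1.45 at 15176995 of chromosome XV, -1.42 at 16422885 of chromosome VIII, -1.41 at 27461756 of chromosome I and -1.37 at 11263004 of chromosome XII. At none of the 10 sites did a heterozygous embryo reach a reference share above 35.6%, and at none of the 10 sites in the other direction did one fall under 63.3%.

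**Figure D4:**
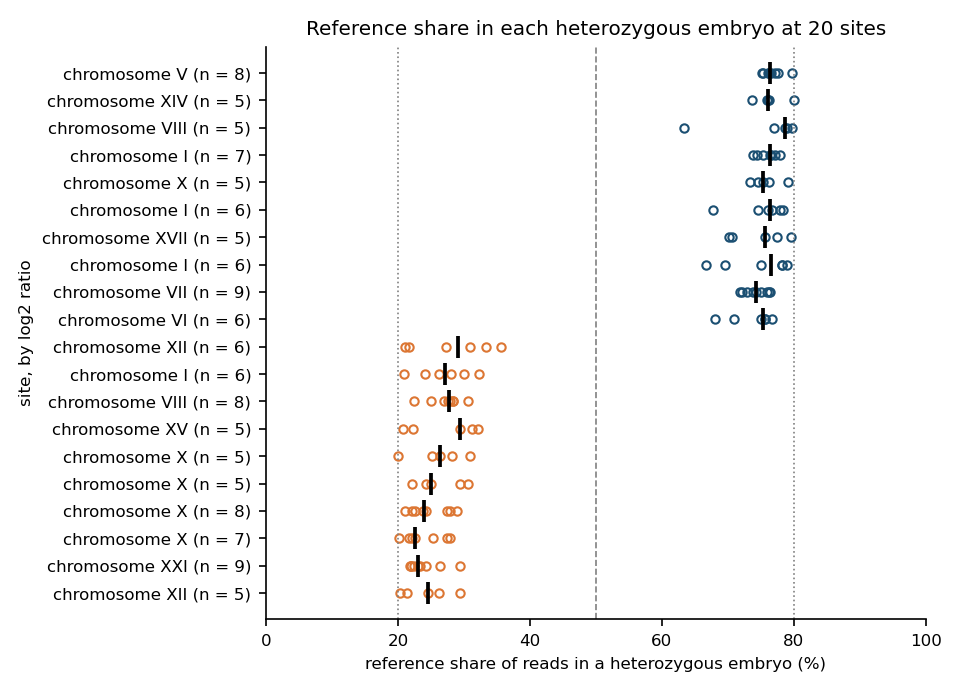
Reference share of reads (horizontal axis, %) in each heterozygous embryo (circles) with the median (bar) at the 10 members with the largest ratio in each direction, in order of log2 ratio, with dotted lines at the 20 and 80% limits of the selection. Shares run from 63.3 to 80% at the upper 10 sites and from 20.0 to 35.6% at the lower 10.

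The 3 members named for the most reads were close to balance. At the G-to-A site at 3647475 of chromosome X, which held 155139 reads, the reference share was 50.9% to 52.4% in 9 heterozygous embryos, with a log2 ratio of 0.09 ± 0.03 (SE; edgeR adjusted p = 0.0103). The G-to-A site at 11698771 of chromosome XI gave 51.7% to 53.4% in 7 embryos and 0.13 ± 0.03 (adjusted p = 0.000426). At the C-to-T site at 22472074 of chromosome I, the shares of 49.1% to 51.6% in 8 embryos fell on both sides of 50%, and the log2 ratio of 0.03 ± 0.03 did not pass the test (adjusted p = 0.363). The 2 small ratios that passed depended on the model. Adjusted p was 0.669 at the chromosome X site and 0.544 at the chromosome XI site without the embryo block in edgeR, and 0.727 and 0.143 after the shift by the member median. With DESeq2 and the block it was 0.402 and 0.0403. Depth and balance did not always go together. The site at 3825051 of chromosome XX, described next, held 104249 reads at a pooled reference share of 38.9%.

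Including the homozygous embryos changed the ratios at these sites by several log2 units, since homozygous embryos add reference reads only. The C-to-G site at 3825051 of chromosome XX had the largest ratio over all 12 embryos, 12.36. In its heterozygous embryos 2, 4, 6 and 7, the reference shares were 40.7%, 39.6%, 38.4% and 36.6%, and the log2 ratio was -0.66 ± 0.03 (SE; edgeR adjusted p = 5.1e-28), in the opposite direction. Its 8 homozygous embryos held 67725 reads with 2 alternate reads, so that nearly every alternate read came from the 4 heterozygous ones.

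The next 4 sites by the ratio over all 12 embryos behaved alike. The ratio fell from 11.95 to 0.12 at 12807707 of chromosome XVII, from 11.74 to 0.32 at 28479379 of chromosome I and from 11.45 to 0.08 at 15802335 of chromosome XVIII when only heterozygous embryos were used. At 17933095 of chromosome I it went from 11.68 to -0.16. Over all members, the test on all 12 embryos called 7002, all towards the reference, and 1100 of these were also called in heterozygous embryos.

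The *HOXDB* cluster on chromosome VI, whose genes encode homeodomain transcription factors that pattern the body axis, held no member. Of 70 sites listed in every embryo in its window, 7 passed the filters and 3 had a call in every embryo, all heterozygous in all 12 embryos. Within 100 kb on either side there were 10 members. The member nearest to *HOXD11B* was the G-to-T site at 17684034, 73 kb away, with reference shares of 38.2% to 66.1% in 8 heterozygous embryos and a log2 ratio of -0.11 ± 0.14 (SE; edgeR adjusted p = 0.636). The T-to-C site at 17833311, 68 kb from *HOXD9B* and 49 kb from *HOXD4B*, had shares of 40.0%, 38.2%, 51.9%, 47.1% and 58.1% in embryos 1, 2, 3, 5 and 11 and a log2 ratio of -0.14 ± 0.26 (adjusted p = 0.758). At both sites the embryos fell on both sides of 50%, from 534 and 124 reads over the heterozygous embryos.

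Total read depth was compared between heterozygous and homozygous embryos of each member, a measure the rule did not use beyond its read minimum. In whole embryos, fewer cells of a type and less RNA per cell cannot be told apart. The embryos were divided by the genotype call of the site, and linked sites share that division, so a difference at the site and a difference along its segment cannot be told apart from the site's own values.

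At an adjusted p below 0.05 over 47211 segregating sites (edgeR quasi-likelihood test), 220 members were called (0.586%, background 0.616%), 114 with more reads in heterozygous embryos (0.304%, background 0.366%) and 106 with fewer (0.282%, background 0.25%). The called members lay in 150 places more than 100 kb apart. The groups did not overlap in CPM at 615 members (1.64%, background 1.71%), of which 183 were also called. The median log2 difference over all members was -0.02, and 4281 members had an unadjusted p under 0.05. The count fell whichever embryo was left out, to between 126 and 194, and it depended on the model, with 530 calls by DESeq2. It was 105 with a low mapping quality share of at most 0.01.

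In heterozygous embryos the reference allele alone gave 0.504 times as many reads as in homozygous embryos (median over members). This value follows from the reference share, which the rule bounds, and the small depth difference, and is not a separate result. Members called with more reference reads and a log2 ratio of at least 0.5 (n = 3011) had a median depth difference of -0.17, and those called with more alternate reads (n = 1187) of 0.20. With the limit at 1, the medians were -0.28 (n = 469) and 0.40 (n = 136). The reads of heterozygous embryos enter both measures, so the values are given side by side only. Over all members the median was -0.02.

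Called neighbours with complementary splits followed the embryos rather than the genotype labels. Among pairs of members called for depth and at most 10 kb apart, all 31 with complementary splits had opposite directions. So did all 17 of those more than 300 bp apart. In every such pair the same group of embryos had the higher depth at both sites by the fitted log2 difference. Single embryos were not compared, and the groups could overlap. These pairs include those within the runs on chromosomes XII, XIV and XV described below and are not independent. All 79 pairs with the same split had the same direction, 25 of them more than 300 bp apart. Pairs with the same split cannot separate embryos from labels, since both are shared. Of 36 pairs with other splits, 31 had the same direction and 5 opposite directions.

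The clearest run lay on chromosome XII. Between 1763674 and 1766385, 12 members were called, 11 with higher and 1 with lower depth in heterozygous embryos. At the T-to-A site at 1765016, embryos 3, 7, 8, 10 and 12 were heterozygous and held 9.25 to 13.4 CPM, and the 7 homozygous embryos held 1.82 to 2.85 CPM, a log2 difference of 2.4 ± 0.15 (SE; edgeR adjusted p = 1.3e-08). The groups were far apart. At the A-to-C site at 1765217, the same 5 embryos were the homozygous ones, with 8.76 to 13.3 CPM against 1.97 to 3.30 CPM in the heterozygous embryos, and the log2 difference was -2.23 ± 0.15. The 5 embryos thus had high depth whichever allele the site assigned to them.

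All 7 members of this run with the split of 1765016 were called, at log2 differences of 1.61 to 2.4. The 4 members from 1763841 to 1764024 that were heterozygous also in embryos 1 and 9 were called at 1.90 to 2.22. Not every heterozygous embryo was high at these 4 members. The lowest held 3.04 to 3.30 CPM, near the highest homozygous values of 2.77 to 2.97 CPM, while the heterozygous medians were 8.90 to 12.7 CPM. Beyond the run the depth difference was small, at 0.24 ± 0.16 (SE; edgeR adjusted p = 0.610) at 1759649, where the same 5 embryos were heterozygous. Allele balance varied in direction within the run, from a log2 ratio of 1.16 at 1764076 to -1.67 at 1766385, although the same embryos were heterozygous at both. At 1765217, where the low-depth embryos were heterozygous, the reference share was 48.9% and the log2 ratio -0.07 ± 0.16 (SE).

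The largest difference in either direction was at the T-to-C site at 16835699 of chromosome XVII. Embryos 2, 4, 6 and 7 were heterozygous and held 0.821, 0.687, 1.08 and 0.997 CPM, whereas the 8 homozygous embryos held 30.2 to 44.8 CPM, with a median of 39.8. The log2 difference was -5.43 ± 0.18 (SE; edgeR adjusted p = 5.7e-13), or 43.1 times fewer reads, and the groups did not overlap. The homozygous embryos also carried alternate reads, 35 of 6181, and the heterozygous calls rested on 40 reference and 33 alternate reads in all. Alternate counts overlapped, at 6 to 11 per heterozygous and 1 to 10 per homozygous embryo, whereas reference counts were 6 to 14 against 615 to 945. The genotype calls here thus follow from the depth itself, and the depth difference is not a separate result. The heterozygous embryos held 14 to 25 reads, near the minimum of more than 12. This site is one of the 2 on chromosome XVII whose split was otherwise the leading split of chromosome XX. Of 7 other members within 100 kb, 1 had the same or complementary split, at 16827506, and there the depth difference was -0.18 (adjusted p = 0.879).

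The largest difference with more reads in heterozygous embryos was at the T-to-C site at 14785143 of chromosome X. Its 6 heterozygous embryos held 27.3 to 40.1 CPM (median 35.4) and its 6 homozygous embryos 5.20 to 7.46 CPM (median 5.62), a log2 difference of 2.51 ± 0.13 (SE; edgeR adjusted p = 1.1e-09). The groups were separated by more than their own ranges. The heterozygous embryos leaned to the reference allele, at 62.3% to 72.2% of reads. A neighbouring G-to-A member at 14785332 had the same split and a difference of 2.34, but of 16 other members within 100 kb only this one shared the split. The pattern was found at 2 members of chromosome X and 4 of other chromosomes.

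On chromosome XX, the G-to-C members at 13964988 and 13965032 had complementary splits and opposite differences. At 13964988, 8 heterozygous embryos held 25 to 48.6 CPM and homozygous embryos 2, 4, 6 and 7 held 5.34, 8.58, 13.8 and 4.27 CPM, a log2 difference of 2.07 ± 0.28 (SE; edgeR adjusted p = 0.000591). At 13965032, embryos 2, 4, 6 and 7 were heterozygous and again low, at 6.16 to 16.0 CPM against 31.2 to 59.2 CPM, and the difference was -2.02 ± 0.25 (adjusted p = 0.000312). Both sites were near balance between alleles, with reference shares of 52.3% and 52.6%. The other 6 members within 5 kb of 13964988, all of the same or complementary split, were not called for depth.

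The G-to-A site at 5059218 of the same chromosome shared the split of 13964988. It held 4.17 to 6.38 CPM in heterozygous and 0.925 to 2.03 CPM in homozygous embryos (log2 difference 1.86 ± 0.20, SE). At the A-to-G site at 765203 of chromosome XV, the heterozygous embryos 4, 5, 8 and 10 held 4.03, 4.24, 4.98 and 3.04 CPM, the 8 homozygous ones 0.899 to 2.91 CPM, and the log2 difference was 1.62 ± 0.23 (SE). In this last site the alternate allele also dominated the reads of the heterozygous embryos, with a reference share of 25.1%.

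Lower depth in heterozygous embryos was also found at 2 sites of chromosome X. The A-to-G site at 14025600 held 1.62 to 2.68 CPM in 5 heterozygous and 4.93 to 7.76 CPM in 7 homozygous embryos (log2 difference -1.64 ± 0.16, SE). The C-to-T site at 626964 held 42.9 to 55.9 CPM against 130.5 to 195 CPM (-1.63 ± 0.13, SE). Its homozygous embryos carried 100 alternate reads of 21740. Within 5 kb of it, 3 members with the complementary split had differences of 0.11 to 0.36 and were not called.

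**Figure D5:**
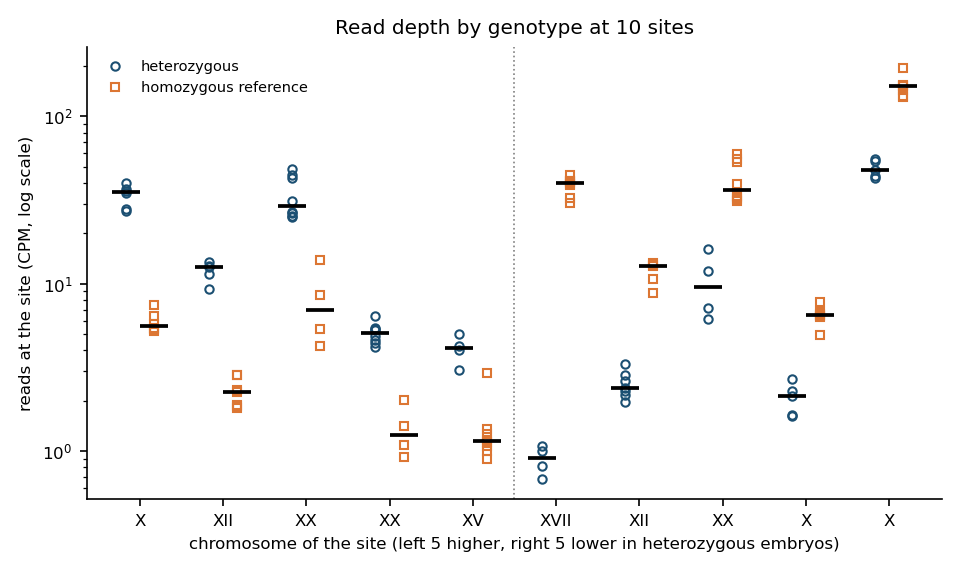
Reads at the site in CPM (vertical axis, log scale) in heterozygous embryos (circles) and homozygous reference embryos (squares) with group medians (bars) at the 5 members with the largest higher and the 5 with the largest lower depth in heterozygous embryos. The groups do not overlap at any of the 10 sites, which the choice of sites required. The widest gap is at the chromosome XVII site, with 0.687 to 1.08 CPM against 30.2 to 44.8 CPM, where the genotype calls themselves follow from depth. On chromosomes XII and XX, a higher and a lower site lie side by side.

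Groups of closely spaced members showed depth changing over short distances. On chromosome VI, 5 members from 15956523 to 15956544, all heterozygous in the same 9 embryos, were called with log2 differences of -0.93 to -1.11. At 15956413, with the same split, the difference was -0.11 (edgeR adjusted p = 0.839) and the reference share 31.2%. Over the 5 called sites the reference share was 52.7% to 57.7%, so both depth and balance shifted within this stretch. The 5 sites lie close enough for 1 read to cover them all, so they are not independent observations. The median of heterozygous embryos was 9.07 CPM at 15956413 and 5.03 CPM at 15956544, where the reference share was 57.0%. Fewer reads thus carried the alternate base at 15956544, and the part of read alignment in this was not tested. On chromosome XIV, embryos 1, 2, 4, 5 and 7 had the higher depth as a group at 3 members where they were heterozygous, from 7587639 to 7587785 (1.03 to 1.17). They also did so at 2 where they were homozygous, at 7591582 (-1.09) and 7593910 (-1.15). The groups overlapped in CPM at 7587639 and 7591582. Chromosome XV had a like group of 4 called members between 1321299 and 1321731, with differences of 0.95 and 1.0 at 1321345 and 1321346 and of -0.94 and -0.98 at the complementary sites 1321299 and 1321731.

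The window on heterozygous shares left out some of the largest changes. Widening it to 0.10 to 0.90 added 1107 sites, of which 823 (74.3%) were called for allele balance, 648 towards the reference and 175 towards the alternate allele. For depth, 114 of the added sites (10.3%) were called, 42 with higher and 72 with lower depth in heterozygous embryos. These sites entered because of extreme shares, so their allele balance is a description of the selection.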

How the data were processed

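The authors trimmed reads with Trim Galore and cutadapt 2.4, aligned them to gasAcu1-4 with STAR, processed alignments with Picard 2.23.4 and SAMtools 1.10, and counted reads per allele with GATK 4.1.4.1. The deposited values are raw read counts per site and embryo (reference, alternate, total and low mapping quality), without normalization or gene names. Genotypes were called from these counts and may differ from DNA genotypes where an allele is silent. Embryos are numbered as in the labels.

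Reference and alternate counts were compared with edgeR 4.0.16 (quasi-likelihood, R 4.3.3), in 1 fit for each number of heterozygous embryos. The embryo was a block, because both allele counts come from the same library. Depth was compared with TMM library sizes. DESeq2 1.42.0 was an alternative. A test on simulated data recovered 132 of 200 sites changed by a log2 ratio of 1 for allele balance (6 false calls among 68291) and 165 of 200 for depth (9 among 47211). The simulated counts were drawn independently for each site, with a fixed spread between embryos and no lean to the reference at unchanged sites. They therefore give no false-call rate for the calls reported here.

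Named sites were the 10 largest called ratios per direction with at least 5 heterozygous embryos all leaning 1 way, the 5 largest called depth differences per direction with groups that do not overlap, the 3 with most reads, the 5 with the largest ratio over all 12 embryos, and the nearest to each *HOXDB* gene. Each list and direction held at most 1 site per 100 kb. Sites of different lists or directions could lie closer, as did 1765016 and 1765217 of chromosome XII and 13964988 and 13965032 of chromosome XX. Runs of neighbouring called sites and the 15 sites with the split of another chromosome were chosen after seeing values. The members and lists were chosen with earlier results of these data known. All 12 samples were 1 group. The sign-flip p-values measure the spread between these embryos, whereas p-values of single sites also carry counting error. An exact binomial test on pooled reads, which takes the embryos as 1 pool, called 8998 members for allele balance. Among them were 7520 of the 7522 members called by edgeR.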

Additional observations from a re-analysis of the deposited data

Results flagged for a closer look

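In 48 groups of 4 to 10 embryos at the named sites, 4 had a highest or lowest embryo that stood apart from the rest of its group by Dixon's criterion, which flags about 1 in 20 groups by chance. At 7541750 of chromosome VIII, embryo 10 had a log2 ratio of 0.78 (31 reference and 18 alternate reads), against 1.74 to 1.97 in the other 4 heterozygous embryos. At 15802335 of chromosome XVIII, embryo 12 had 0.19 against 0.04 to 0.08 in the other 4.

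Embryo 1 stood apart in the homozygous groups of 2 depth sites. At 765203 of chromosome XV it held 2.91 CPM, against 0.899 to 1.35 CPM in the other 7 homozygous embryos. At 626964 of chromosome X it held 195 CPM, against 130.5 to 155 CPM in the other 6. The cause was not tested at any of these sites.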

How the results depend on the processing

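The median reference share and its difference from the mirror sites kept their direction and a p under the threshold under every alternative tried, including each embryo left out. The 7522 allele balance calls became 2237 without the replicate block, 2631 with DESeq2 and the replicate block, 1000 of 6191 with 1 site per 10 kb, and 4198 with a log2 ratio of at least 0.5. They ranged from 6765 to 7097 with 1 embryo left out. The 220 depth calls became 403 with heterozygous shares of 0.10 to 0.90, 105 with a low mapping quality share of at most 0.01, 28 of 6191 with 1 site per 10 kb, and 530 with DESeq2, and ranged from 126 to 194 with 1 embryo left out. With 1 site per 10 kb the called share also fell, from 20.0% to 16.2% for allele balance and from 0.586% to 0.452% for depth. The cause of these changes was not tested.

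With the homozygous embryos included, ratios reversed at chromosome I 17933095 (11.68) and 27461756 (2.78), VIII 16422885 (0.14), VI 17684034 (1.44) and 17833311 (3.38), XII 11263004 (2.17) and 1766385 (4.1), XV 15176995 (3.04), XX 3825051 (12.36), and X 13397664 (5.63), 16591055 (3.33) and 7021121 (0.83). Shifting by the member median reversed chromosome I 22472074 to -0.039, and with 1 embryo left out VI 17833311 ranged from -0.34 to 0.058. Of the values of named sites under the alternatives, 358 kept direction and side of the threshold, 21 lost the call, 4 gained it and 14 reversed. Including the homozygous embryos, which add reference reads only, gave 12 of the reversals and 8 of the lost calls. Those changes follow from the choice of embryos. A ratio at a site with under 300 pooled reads had a median standard error of 0.25, against 0.07 at 3000 or more, which limits the smaller sites.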
